A study of Arabidopsis thaliana with 9 samples.

Results

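In cultured Arabidopsis thaliana cells, 54 of 22746 probe sets gave their highest signal at the growth light and lower signals both in the dark and in high light. A probe set is a group of short array probes read as 1 transcript measure. The 54 were chosen by their own values: on the deposited log2 scale all 3 control arrays lay above all 6 other arrays, and the control mean exceeded the dark mean and the high light mean by at least 0.4 each. That pattern was met by 58 probe sets (0.255% of those measured), and 4 of them, for LHCB4.2, UGT88A1, PSAN and GI, were left out by name. Since control against dark and control against high light made the choice, those differences are given as a description with no test.

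The cells were a suspension culture grown in liquid medium under continuous light, sampled as 3 groups with 3 biological replicates each, and measured on Affymetrix ATH1 arrays. Control cells were in 50 microE/m2/s, the light in which the culture was kept. The dark group was kept without light for 1 h, and the high light group was exposed to 1800 microE/m2/s for a period of 30 min. Light level and length of treatment differ together between the dark and the high light groups and cannot be told apart, and no label says whether the replicates came from separate cultures. The labels name no mutant, transgene or chemical in any group.

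Light reaches a plant cell both as energy for photosynthesis and as a signal read by photoreceptors, and transcripts can answer to its loss and to its excess. In leaves, darkness lowers many transcripts of light harvesting and of growth, and excess light lowers antenna transcripts and raises stress transcripts. A transcript that is highest at the growth light lies below that level on both sides. Gibberellin, a growth hormone, is perceived by the soluble GID1 receptors, which then bind the DELLA repressors of growth and lead to their breakdown. PSY1R is named as the receptor of PSY1, a secreted sulfated peptide that promotes cell expansion, and belongs to the leucine-rich repeat receptor kinases.

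The platform annotation gave exactly 1 gene for 25 of the 54 members and none for the other 29, which are reported by probe set. The gene table lists a symbol other than the locus for 2 of the 25, GID1C and PSY1R. For AT2G31110 it lists the further name TBL40, of the trichome birefringence-like family, whose characterised members are linked to acetylation of cell wall polysaccharides. AT3G52060 has the further name GnTL, for an N-acetylglucosaminyltransferase-like protein. The remaining 21 genes carry no functional name in the files used here, and none is given to them.

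Over the whole series, the median log2 signal per array lay between 5.55 and 5.67, and the number of arrays limits the precision. On the first principal component (47.4% of the variance), high light replicates 2 and 3 scored 41.5 and 45.4 and the other arrays between -28.5 and 4.32, the highest of these being high light replicate 1. An RNA quality index, the 3 prime minus 5 prime signal of Affymetrix control sets for actin, GAPDH and ubiquitin, averaged 0.93 ± 0.19 for control arrays, 1.02 ± 0.25 for dark arrays and 1.00 ± 0.05 for high light arrays (log2, SD, n = 3). Of 15 marker genes for dividing, green leaf, xylem, root hair and seed cells, 2 had a named probe set. RCA, the Rubisco activase of green cells, had mean log2 signals of 11.0 (control), 10.77 (dark) and 10.83 (high light). EXPA7, a root hair expansin, had means of 4.28, 4.18 and 4.39, close to the lower quartile of the arrays (4.05 to 4.12). No marker of dividing cells had a named probe set, so the labelled cell type could not be checked on that side.

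The same rule was applied to the other groups for comparison of numbers. Control was the lowest group in 16 probe sets, against 58 in which it was the highest. Dark was the highest in 4 and the lowest in 89, and high light was the highest in 400 and the lowest in 72. By this rule the growth light more often had the highest than the lowest signal, and high light had the highest signal most often.

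**Figure D1:**
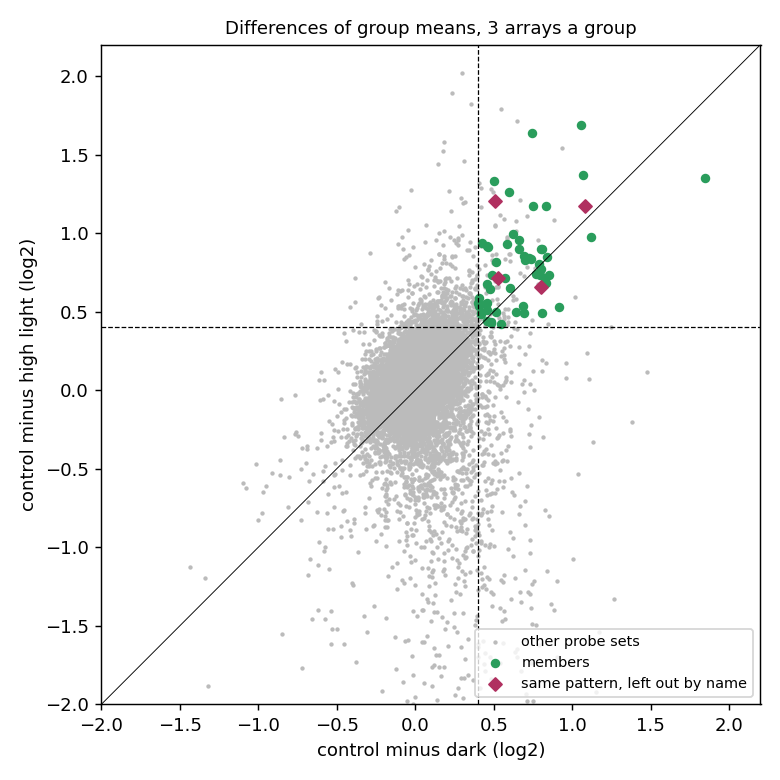
Control minus dark (x axis, log2) against control minus high light (y axis, log2) for the group means of every probe set, with members in green, the 4 sets left out by name as red diamonds and other sets in grey. Dashed lines mark the minimum of 0.4 and the solid line equal differences; 110 probe sets outside the axes are not drawn, none of them a member. The members lie on both sides of the line of equal differences, 36 above it and 18 below.

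Control minus dark was at least 1 log2 unit in 4 members and control minus high light in 8. The median of control minus dark was 0.65 on the log2 scale (range 0.40 to 1.85), and that of control minus high light was 0.74 (0.42 to 1.69). Over all probe sets the corresponding medians were 0.00 and 0.03. As shares of the control signal, the members had a median of 63.6% in dark (27.8% to 75.7%) and of 60.0% in high light (31.0% to 74.7%). Both differences were at least 1 in 3 members, all without a gene name. The members were mostly well expressed, with control means from 5.40 to 10.90 and 49 of 54 above the median control mean of all probe sets (5.64). None had a control mean below the lower quartile of the arrays. Values near the floor are compressed and can hardly differ by 0.4, so the rule itself favours well expressed probe sets.

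GID1C, a gibberellin receptor gene, had log2 signals of 5.30, 5.31 and 5.60 on control replicates 1, 2 and 3, of 5.21, 5.05 and 4.75 in dark, and of 5.01, 4.67 and 4.88 in high light. Its lowest control array was 0.09 above its highest other array, and the dark and high light arrays overlapped. The mean was at 75.7% of control in dark and 68.2% in high light, log2 differences of 0.40 and 0.55 (SE 0.15 each), which makes GID1C the member nearest to the minimum of 0.4. Without control replicate 3 the differences were 0.30 and 0.45.

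The other 3 measured genes of gibberellin perception come from a list added after the members were known, and 0 of them met the rule. The means of GID1B and SLY1 ran from control over dark to high light, as those of GID1C did, and those of GID1A did not. GID1B, a second receptor gene, had signals of 9.07, 8.19 and 8.58 in control, 8.81, 8.44 and 7.34 in dark, and 7.98, 7.46 and 6.89 in high light. All 3 high light arrays lay below all 3 control arrays, while dark overlapped both groups. GID1B was at 75.0% of control in dark and 44.5% in high light (log2 differences 0.42 and 1.17, SE 0.41), so both differences passed the minimum and only the overlap kept it outside the rule. GID1A, the third receptor gene, had means of 8.10, 8.09 and 8.15 in control, dark and high light. SLY1, the F-box protein that marks DELLA proteins for breakdown, had means of 8.24, 8.23 and 7.71, with control and dark nearly equal and a log2 difference of high light minus dark of -0.51 (SE 0.15, limma adjusted p = 0.299).

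Of these 3 genes limma called 0 in high light against control, where 0.0615% of all probe sets were called lower and 0.44% higher. At an unadjusted p under 0.05, 2 of the 3 (GID1B and SLY1) were lower there, beside 4.92% of all probe sets. In dark against control limma called 0 of the 3 and 0 of all probe sets, and 0 of the 3 had an unadjusted p under 0.05. In high light against dark it called 0 of the 3, beside 0.0132% of all probe sets lower and 0.884% higher, and SLY1 was lower at an unadjusted p under 0.05, as were 3.52% of all probe sets. Deviations of same-numbered control and high light arrays were positively correlated, which does not show that the numbers pair them. A limma fit blocked on that number called SLY1 lower in high light against control (log2 difference -0.52, SE 0.09, adjusted p = 0.0459), beside 0.312% of all probe sets lower and 1.02% higher. Without the block its adjusted p there was 0.293, and as each array was left out from that fit it lay between 0.108 and 0.847. GID1B was not called with the block (adjusted p = 0.0772).

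PSY1R had log2 signals of 6.80, 6.27 and 7.07 in control, 6.25, 5.87 and 5.96 in dark, and 6.09, 6.25 and 6.20 in high light. Control replicate 2 was only 0.03 above the highest dark and high light arrays, so the separation of the groups was narrow. The means gave 62.1% of control in dark and 69.0% in high light (log2 differences 0.69 and 0.54, SE 0.19). Without control replicate 3 they were 0.51 and 0.36, and PSY1R no longer met the rule. No other gene of the sulfated peptide list had a named probe set.

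AT2G31110 (TBL40) was measured by a pair of probe sets with separate identifiers. The member, 266473_at, had signals of 8.32, 8.20 and 8.09 in control, 7.98, 7.59 and 7.60 in dark, and 7.63, 7.85 and 7.85 in high light, log2 differences of 0.48 and 0.43 (SE 0.13). The other, 266474_at, had 9.37, 9.46 and 9.68 in control, 9.15, 8.91 and 9.33 in dark, and 9.06, 9.24 and 9.03 in high light. There too all control arrays lay above all others, by 0.03 at the narrowest, with differences of 0.37 and 0.39 (SE 0.13) that are just short of the minimum. Both probe sets read the same RNA, so the second is a repeat of the measurement and not of the experiment.

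Among the other trichome birefringence-like genes, 22 had a named probe set, and 0 of them met the rule. Their median of control minus dark was 0.05 and of control minus high light 0.07. TBL28 came near, with differences of 0.62 and 0.58 (SE 0.20), but its control replicate 1, at 4.34, lay below dark replicate 3 and high light replicate 3, both at 4.39. Limma called 0 of the 22 in each of the 3 comparisons. At an unadjusted p under 0.05, 1 was lower in dark against control, where 1.77% of all probe sets were, 2 were lower in high light against control, where 4.92% were, and 1 was lower in high light against dark, where 3.52% were.

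AT3G52060 (GnTL) had signals of 8.91, 8.92 and 9.49 in control, 8.45, 8.68 and 8.83 in dark, and 8.33, 8.44 and 8.51 in high light. It was at 73.0% of control in dark and 62.4% in high light (log2 differences 0.45 and 0.68, SE 0.17).

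**Figure D2:**
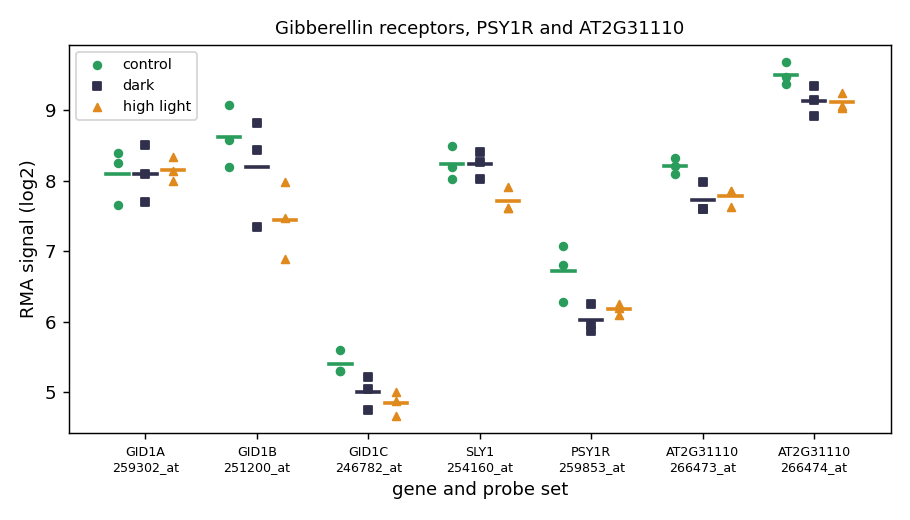
Log2 RMA signal (y axis) of the gibberellin receptor genes, SLY1, PSY1R and both probe sets of AT2G31110 (x axis), with 1 point per array, a bar at the group mean, and control, dark and high light in green, black and orange. All control points lie above all others for GID1C, PSY1R and both AT2G31110 sets, and not for GID1A, GID1B or SLY1; heights of different probe sets are not comparable.

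By the smaller of both differences, the named gene furthest from the other groups was AT1G69570. Its signals were 6.89, 6.73 and 7.03 in control, 6.08, 5.80 and 6.25 in dark, and 6.25, 5.93 and 5.92 in high light. Control was separated by 0.47, and dark and high light were nearly equal, at 56.0% and 55.5% of control (log2 differences 0.84 and 0.85, SE 0.14).

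Among the named members, control was most clearly separated from the other arrays in AT3G49790. It had 6.64, 6.65 and 6.74 in control, 5.97, 5.81 and 5.94 in dark, and 5.99, 6.01 and 5.82 in high light. The gap of 0.63 between the lowest control and the highest other array was the widest of any named member. Its means were at 58.7% of control in dark and 59.9% in high light (log2 differences 0.77 and 0.74, SE 0.08).

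AT4G20320 and AT3G15630 had differences of similar size with a wider spread in control. AT4G20320 had 6.90, 7.15 and 7.86 in control, 6.61, 6.48 and 6.39 in dark, and 6.51, 6.49 and 6.20 in high light. Its control SD of 0.50 compares with 0.11 in dark and 0.18 in high light. AT3G15630 had 9.20, 9.80 and 9.85 in control, while its 3 dark arrays read 8.83, 8.83 and 8.79 and its high light arrays 8.81, 8.76 and 8.59. It was at 57.3% of control in dark and 53.7% in high light (log2 differences 0.80 and 0.90, SE 0.16).

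AT1G24530 had log2 differences of 0.70 from dark and 0.85 from high light (SE 0.16), and AT1G56220 had 0.70 and 0.83 (SE 0.25). AT5G38340 had 0.60 and 0.65 (SE 0.20). For AT1G56220 control replicate 3 stood at 7.10 above replicates 1 and 2 at 6.08 and 6.33, whereas for AT1G24530 control replicate 2 was the highest, at 7.87. These 3 genes, with AT1G69570, AT4G20320, AT3G15630 and AT3G49790, are the 7 named members that met the rule whichever array was left out. AT1G56220 did so only just, with a control minus dark of 0.4003 without control replicate 3. Leaving out an array cannot make a member's control arrays overlap the others, so only the minimum difference was checked in this way.

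AT2G02400 and AT5G59960 had small differences with little spread. AT2G02400 had 7.55, 7.54 and 7.47 in control, 7.02, 7.09 and 7.06 in dark, and 7.17, 6.97 and 7.09 in high light, log2 differences of 0.46 and 0.44 (SE 0.07). AT5G59960 had 7.73, 7.76 and 7.69 in control, 7.19, 7.39 and 7.35 in dark, and 7.41, 7.16 and 7.15 in high light, differences of 0.42 and 0.49 (SE 0.09). Their control arrays were clear of the others by 0.29 and 0.28, beside a median gap of 0.18 over the members.

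Several members had high light arrays that were unequal among themselves, and 4 in which high light replicate 1 was the highest are given here. The order differed in other members. In high light AT3G47480 had 9.30, 8.49 and 9.30 (SD 0.46), and AT5G38340 had 6.08, 6.89 and 6.60 (SD 0.41). AT5G24890 had 9.77, 9.90 and 9.81 in control, 9.41, 9.19 and 9.50 in dark, and 9.38, 8.85 and 8.53 in high light. High light replicate 1 lay within the dark range and replicates 2 and 3 lay below it. AT4G19860 had the same order, with 7.05, 6.33 and 6.20 in high light beside 7.04, 7.19 and 6.88 in dark and 7.32, 7.21 and 7.86 in control. AT3G47160 had 8.87, 8.44 and 8.44 in high light, all below its dark arrays of 8.95, 8.94 and 9.22, with control at 9.27, 9.29 and 9.93. AT2G40200 had 4.99, 4.31 and 4.49 in high light, 4.86, 4.99 and 4.99 in dark, and 5.15, 5.26 and 6.19 in control. These 4 genes were at 53.2%, 52.2%, 53.0% and 52.5% of control in high light and at 72.7%, 74.3%, 72.8% and 66.8% in dark.

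AT3G19540 and AT1G76580 were among the named members that lay the other way round, with the lower mean in dark. Their high light minus dark was 0.32 (95% interval -0.06 to 0.69) and 0.14 (-0.34 to 0.63), beside 0.15 in PSY1R. AT3G19540 had 7.29, 7.70 and 7.40 in control, 6.91, 6.66 and 6.39 in dark, and 6.88, 7.20 and 6.83 in high light, log2 differences of 0.81 and 0.49 (SE 0.17). AT1G76580 had 6.74, 7.05 and 6.36 in control, and its control replicate 3 was above dark replicate 1 by 0.01. Its differences were 0.64 from dark and 0.50 from high light (SE 0.21).

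Of the 6 remaining named members, AT1G15740 had log2 differences of 0.52 from dark and 0.82 from high light (SE 0.19). AT1G49650 had 0.51 and 0.50 (SE 0.19), AT5G64160 had 0.46 and 0.55 (SE 0.10), and AT3G47480 had 0.46 and 0.51 (SE 0.21). AT2G18750, with 0.48 and 0.43 (SE 0.19), had 1 dark array at 5.29 well below the other two at 6.0 and 6.05. For AT3G06150 the differences were 0.41 and 0.53 (SE 0.13). Just outside the rule, AT4G18950 had differences of 0.63 and 0.39 and AT1G19000 had 0.39 and 0.56, both with no overlap between control and the other arrays, whereas AT3G06150 and GID1C stand just inside.

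**Figure D3:**
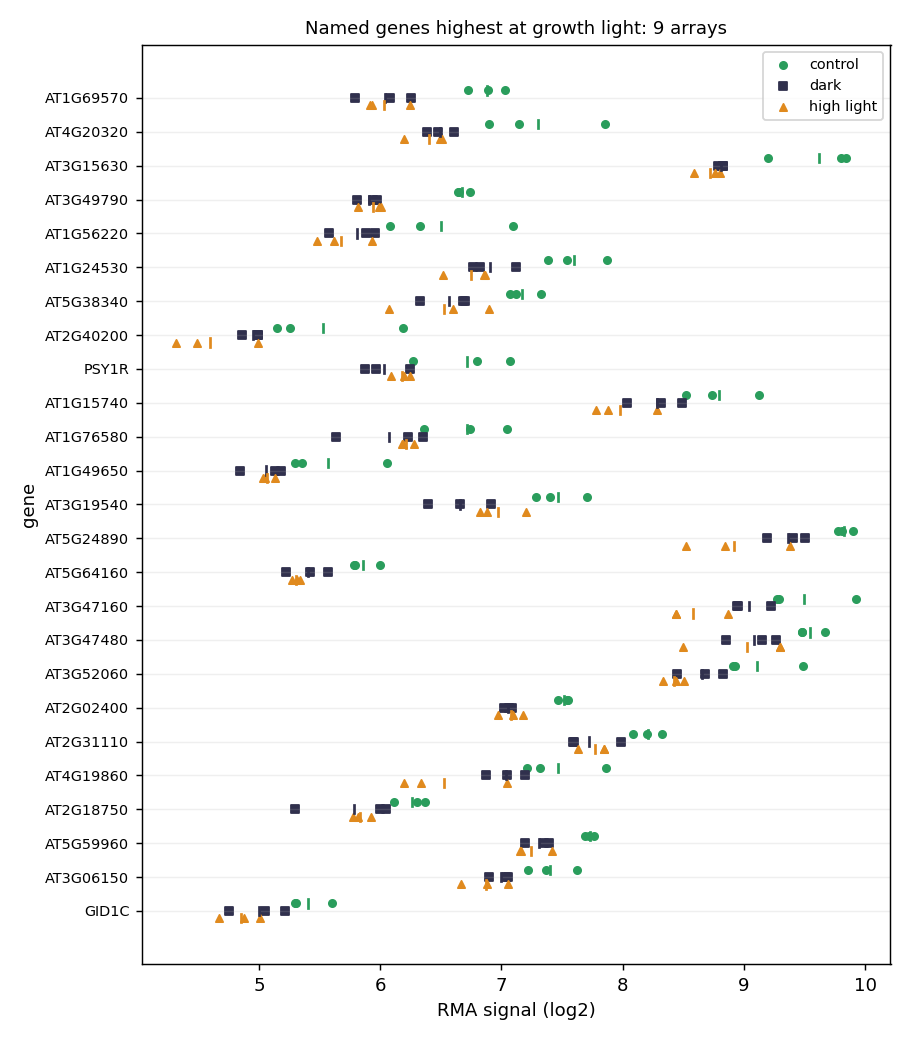
Log2 RMA signal (x axis) of the 25 named members (y axis), ordered by the smaller of both differences from control. Each gene has 3 control, 3 dark and 3 high light arrays as points and a tick at each group mean. Control lies right of every other point by construction. For AT5G24890, AT3G47160, AT4G19860 and AT2G40200, among others, high light replicates 2 and 3 lie left of the dark arrays.

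The 29 unnamed members spanned control minus dark from 0.41 to 1.85 and control minus high light from 0.42 to 1.69. The largest was 252429_at, with 7.94, 8.12 and 8.65 in control, 6.16, 6.0 and 7.01 in dark, and 6.22, 7.29 and 7.15 in high light. It was at 27.8% of control in dark and 39.3% in high light (log2 differences 1.85 and 1.35, SE 0.35). Its dark and high light arrays overlapped widely.

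The probe set 252430_at had 10.65, 10.58 and 10.93 in control, 9.69, 9.46 and 9.82 in dark, and 9.35, 9.54 and 9.16 in high light. The gap of 0.77 between its lowest control and highest other array was the widest among the 54. It was at 47.7% of control in dark and 38.6% in high light (log2 differences 1.07 and 1.37, SE 0.14). The third member with both differences of at least 1 was 267002_s_at, at 48.1% and 31.0% of control. The ending of its name marks probes shared by several transcripts, as for 1 other member, 263345_s_at.

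The difference between dark and high light was not itself a term of the rule, and it was tested with limma over all probe sets. Yet the rule used the values of these same arrays, and both groups had to lie below control. The p-values, intervals and shares of the members are shaped by that choice. They are a description and no independent test against all probe sets. Limma called 0 of the 54 members at an adjusted p under 0.05, beside 0.884% of all probe sets called higher in high light and 0.0132% called lower. The smallest adjusted p among the members was 0.208. At an unadjusted p under 0.05, 7 members were lower in high light than in dark (13%, against 3.52% of all probe sets) and 1 was higher (1.85%, against 4.48%). Among probe sets with a mean signal above the median, where most members lie, the shares were 5.38% lower and 6.16% higher.

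The high light mean was below the dark mean in 36 of 54 members (66.7%), near the 61.2% of all probe sets and the 71.4% of those above the median signal. The median of high light minus dark was -0.09 over the members and -0.04 over all probe sets. In 5 members every high light array lay below every dark array (9.26%, against 5.28% of all probe sets), in 1 every one lay above (1.85%, against 4.99%), and in 48 the groups overlapped. For most members, then, these arrays give no order of dark and high light.

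The members with the largest differences between dark and high light were unnamed, and they are named here after their values were seen. The probe set 253038_at had 7.80, 8.03 and 8.22 in control, 6.99, 7.61 and 7.22 in dark, and 6.96, 6.16 and 6.01 in high light. Its high light minus dark was -0.89 (95% interval -1.48 to -0.30, limma adjusted p = 0.291). The probe set 251084_at had 6.87, 7.03 and 6.88 in dark and 6.58, 6.03 and 5.68 in high light, a difference of -0.83 (-1.32 to -0.34, limma adjusted p = 0.208). In both, high light replicate 1 was the array nearest to dark. The 1 member higher in high light at an unadjusted p under 0.05 was 256266_at, with 4.66, 4.43 and 4.43 in dark and 4.79, 4.90 and 4.99 in high light, a difference of 0.39 (0.11 to 0.66, limma adjusted p = 0.359).

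Among the named members, AT3G47160 had a high light minus dark of -0.46 (95% interval -0.91 to -0.01, limma adjusted p = 0.614) and AT5G24890 of -0.45 (-0.89 to -0.01, limma adjusted p = 0.612). For AT4G19860 it was -0.51 (-1.06 to 0.04, limma adjusted p = 0.678).

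In the opposite sense, the difference was bounded closely in some members. The 95% interval lay within 0.4 either way in 8 members (14.8%, against 55% of all probe sets, whose median SE was 0.12 beside 0.19 in the members). They include AT3G49790 with an interval from -0.15 to 0.21, AT2G02400 from -0.15 to 0.19, AT5G59960 from -0.28 to 0.14 and AT1G69570 from -0.34 to 0.31. For the other 46 the arrays do not exclude a difference as large as the minimum of 0.4 in at least 1 direction.

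**Figure D4:**
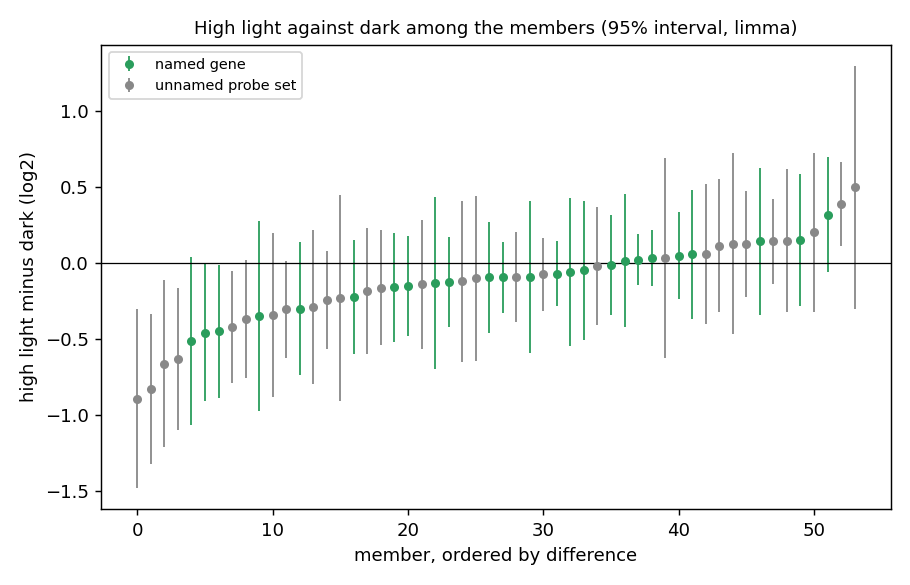
High light minus dark (y axis, log2) with its 95% interval from limma for each of the 54 members, ordered by that difference (x axis), named genes in green and unnamed probe sets in grey. Differences run from -0.89 to 0.50, and the interval excludes 0 before adjustment in 8 members, 7 of them below 0.

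Leaving out high light replicate 1, which stood nearest to the other groups on the first principal component, limma called 4 of the 54 members lower in high light than in dark. They were AT5G24890 (-0.68, adjusted p = 0.0342), 251084_at (-1.07, adjusted p = 0.0125), 253038_at (-1.19, adjusted p = 0.0174) and 261056_at (-0.93, adjusted p = 0.0425). That fit called 675 of all probe sets, 535 higher and 140 lower. In all 4 members the array left out was the high light array nearest to dark, so its removal widens the difference by construction. These calls are therefore no separate evidence of a difference, and with all arrays limma called 0 of the 54. With array weights 251084_at and 253038_at were called (adjusted p = 0.0203 and 0.0280). There too high light replicate 1 counted least, with the lowest weight of all arrays (0.48).

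The control arrays did not contribute equally to the pattern. Control replicate 3 was the highest of the 3 control arrays in 39 of 54 members, where it was the highest in 40% of all probe sets. Replicate 2 was the highest in 11 members and replicate 1 in 4. The median deviation of the members from their control mean was 0.22 in replicate 3, -0.10 in replicate 2 and -0.11 in replicate 1. Over all probe sets these medians were 0.00, and the RNA quality index of the control arrays was 1.10 in replicate 3, 0.99 in replicate 2 and 0.72 in replicate 1. Dark replicate 3 had the highest index of all arrays (1.29), and the members' median deviation from their dark mean there was 0.01. The part of RNA quality in the result was not tested.

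Without control replicate 3, 32 of the 54 members still met the rule, 14 of them named. The 11 named genes that did not were AT2G40200, PSY1R, AT1G15740, AT1G49650, AT5G64160, AT3G47160, AT3G47480, AT3G52060, AT4G19860, AT2G18750 and GID1C. The median of control minus dark over the 54 was then 0.50 and that of control minus high light 0.60. Left out in turn, the other 8 arrays each kept between 47 and 53 of the 54, and 25 members met the rule in all 9 cases. An omitted array cannot bring an overlap into a member, so these counts concern the minimum difference alone. They rest on the same values that chose the members.

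**Figure D5:**
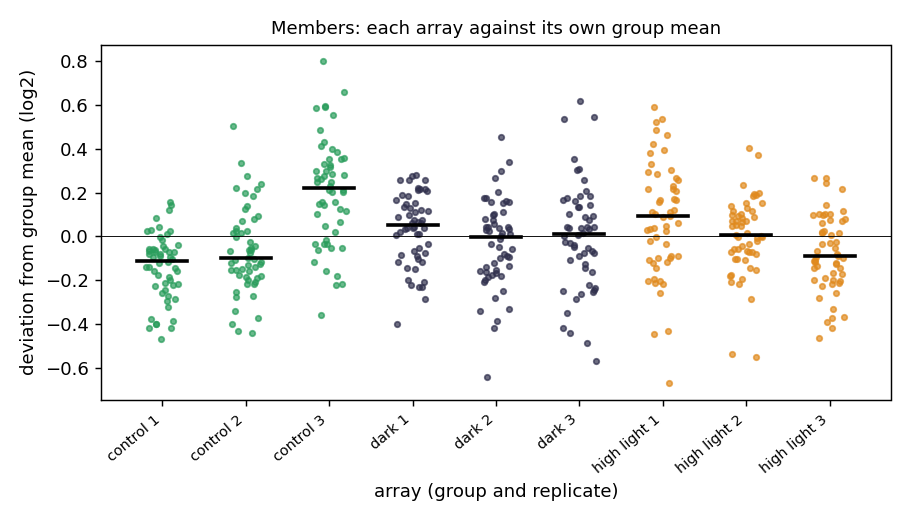
Deviation of each member from its own group mean (y axis, log2) on each of the 9 arrays (x axis), with 1 point per member and a bar at the median. The median is 0.22 on control replicate 3 and -0.11 and -0.10 on control replicates 1 and 2, and between -0.09 and 0.09 on the dark and high light arrays.

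The 25 named members have up to 50 adjoining protein-coding genes on the chromosomes, and 22 of these were measured by a named probe set. None of the 22 was a member and 0 met the rule, while 13 (59.1%) had a control mean above both other means, as 36.7% of all probe sets did. The other neighbours, and the positions of the 29 unnamed members, were not analysed here. The median of control minus dark over the 22 was 0.04 and of control minus high light 0.09. The nearest to the pattern was AT1G76590, beside AT1G76580, with differences of 0.40 and 0.77 but a control array below a dark array, and AT1G69580, beside AT1G69570, had 0.22 and 0.81.

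In the 4 sets left out by name control was also the highest group, as the rule requires. LHCB4.2, of the photosystem II antenna, was at 47.4% of control in dark and 44.4% in high light, PSAN of photosystem I at 69.3% and 61.0%, the clock regulator GI at 70.4% and 43.4%, and the glycosyltransferase gene UGT88A1 at 57.3% and 63.4%. LHCB4.2 and PSAN were the 2 of 12 measured nuclear photosynthesis genes that met the pattern, as 0.255% of all probe sets did. The list had a median of 0.22 for control minus dark and 0.36 for control minus high light. Within this list PSBY (0.33 and 0.50, SE 0.11), PSB27 (0.34 and 0.49, SE 0.15) and ATPC1 (0.19 and 0.42, SE 0.11) also had all control arrays above all others, by 0.09 or less, and failed only the minimum difference. That separation was found in 292 of 22746 probe sets, not counting the names left out. In RCA, PSBW, LHCB4.1, PRK, PSAE-1, LHCB4.3 and ATPC2 the control arrays overlapped the others, and the control mean of ATPC2 was below its dark mean (control minus dark -0.11).

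Of the light signalling and clock list, 2 of 25 genes had a named probe set, GI and HYH, and HYH had means of 3.78, 3.74 and 3.88 in control, dark and high light, below the lower quartile of every array. The 11 measured auxin response genes had medians of -0.02 and 0.00, and 0 of them met the rule or had an unadjusted p under 0.05 in limma without the block in any of the 3 comparisons. Of the 11, 6 had control means of 3.60 to 4.03, also below that quartile, where RMA compresses differences.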

How the data were processed

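Total RNA from 9 samples was hybridised to ATH1 arrays. The deposited values are taken as log2 signals per probe set, and per the submitters' processing notes the authors made them with affy and its RMA method. No settings are given in the sources used here. The base of the logarithm was taken from the range of the values. RMA equalises the distributions of the arrays, so a shift of most transcripts would not show, and values near the floor are compressed. Detection above background was not tested. All 9 columns were used, and 64 Affymetrix control sets entered quality values only.

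The members, the lists and the tests were chosen with earlier results of these data known. Genes were named from the platform annotation, which pairs 13513 probe sets with 1 gene each, 503 with several and 8730 with none. Of the 13513, 13436 matched the gene table (assembly TAIR10.1). Named are all members with 1 gene, ordered by the smaller difference from control, and the 2 sets nearest below the minimum of 0.4. Lists count each gene once, through its probe set of highest mean. Limma 3.58.1 (R 4.3.3) was used for high light against dark (a mean per group over all 9 arrays, eBayes, Benjamini-Hochberg over 22746 probe sets, 6 residual and 2.55 prior degrees of freedom), as were the other comparisons for listed genes that are not members. Each SE comes from this fit. The script was tested on simulated data. The p-values measure the spread between these arrays. Whether replicate numbers pair the arrays was checked from the deviations of same-numbered arrays from their group means: the correlations were 0.41, -0.03 and 0.49 in high light against dark, 0.63, 0.01 and 0.43 in dark against control, and 0.52, 0.26 and 0.38 in high light against control. All 3 pairs were above 0.1 only in the last. Differently numbered arrays were not compared, so this does not show that the numbers pair the arrays. A fit blocked on the number in all 3 groups, added after seeing the data, is given for the listed genes of that comparison. The fit otherwise has no block. Functional classes and promoter motifs were planned and not analysed here, and the ribosome list had 0 measured genes. Alternatives covered each array left out, other normalisations, filters, minimum differences, array weights, an intensity trend, a replicate block and a stricter threshold.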

Additional observations from a re-analysis of the deposited data

How the results depend on the processing

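With the minimum difference set to 0.3, 0.5 or 0.6 the rule found 89, 32 or 25 members, and 143 when control was allowed to overlap the other arrays. As each array was left out it found 55 to 154 (154 without control replicate 1, 104 without control replicate 2 and 95 without dark replicate 3), and a rule on fewer arrays is easier to meet. After median centring it found 45 and after a second quantile normalisation 48, 45 and 47 of them among the 54. In high light against dark limma called 204 probe sets (201 higher, 3 lower). Leaving out an array gave 76 to 675, with 90 and 85 without dark replicate 1 or 2, 76 and 84 without high light replicate 2 or 3, and 675 without high light replicate 1. Only the 6 arrays of both groups gave 131, array weights 642 (551 higher, 91 lower) and an adjusted p under 0.01 gave 84. The cause was not tested. The replicate number as a block gave 430 (402 higher, 28 lower), with 0 members called, as without it, and SLY1 called lower (adjusted p = 0.0387); the numbers are not shown to pair the arrays of this comparison. In high light against control, where pairing is not shown either, the block gave 302 (231 higher, 71 lower) in place of 114. It called 1 of the 3 listed gibberellin genes, SLY1, in place of 0. Leaving out each array was run only without the block there, and called 0 of the 3. The block changed no other call among the listed genes that are not members and did not meet the pattern. Members called were 0 to 4 as each array was left out, 2 with array weights and 0 under the other alternatives run.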
